A study of Mus musculus with 22 samples.

Results

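The genes described are 10 members of the MHC class I antigen presentation pathway, chosen by symbol from the 29367 genes of the deposited count table. All 10 were found and all 10 passed the filter on low counts in every comparison. They are the heavy chains *H2-K1*, *H2-D1* and *H2-T23*, the light chain *B2m*, the peptide transporter genes *Tap1* and *Tap2*, the loading factor gene *Tapbp*, the immunoproteasome subunit genes *Psmb8* and *Psmb9*, and the regulator *Nlrc5*. Their mRNA was measured on astrocyte ribosomes of the mouse optic nerve head (ONH) and of the myelinated optic nerve proper (ONP) at 7 and 30 days after microbeads were injected into the eye to raise the intraocular pressure. There were 4 ONH and 4 ONP libraries at day 7 and 7 ONH and 7 ONP libraries at day 30. Each library was a pool of tissue from 4 mice (2 males, 2 females), 3 to 4 months of age per the study's methods.

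All 22 libraries came from a cross of ribotag mice, B6J.129(Cg)-Rpl22tm1.1Psam/SjJ, with a GFAP-Cre driver line whose strain name ends in 73.12Mvs/J. The labels give the genotype of all groups as WT. In the offspring a Cre recombinase under the *GFAP* promoter puts an HA tag on the ribosomal protein Rpl22, so that anti-HA beads pull down the ribosomes of cells that expressed Cre at some time. Other cells that once expressed *GFAP*, and RNA that sticks to the beads, can add to the signal. All groups had been injected with microbeads, and uninjected nerves were not analysed here, so that no value below is a response to the injection itself. Per the study's methods the ONH was the translucent part without myelin and each ONP was cut to the same length from the same mice, so that libraries of the same replicate number at day 30 were taken to share their mice.

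Class I molecules display short peptides from the inside of a cell to CD8+ T cells and natural killer cells. A heavy chain is folded with β2-microglobulin, peptides are cut by the proteasome, carried into the endoplasmic reticulum by the TAP1-TAP2 transporter and placed into the groove with the help of tapasin (*Tapbp*). Interferon replaces the catalytic proteasome subunits with the inducible ones encoded by *Psmb8*, *Psmb9* and *Psmb10*, and NLRC5 is the transcriptional coactivator of class I genes. In the healthy central nervous system class I levels are low in most cells, and astrocytes, microglia and endothelial cells can all raise them under interferon.

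The members lie close together: 8 of the 10 are in the MHC on mouse chromosome 17 (GENCODE M21, GRCm38). *Tapbp* (chr17:33915899-33929292, plus strand), *H2-K1* (chr17:33996017-34000347, minus), *Psmb9* (chr17:34181987-34187764, minus), *Tap1* (chr17:34187553-34197225, plus), *Psmb8* (chr17:34197721-34201454, plus) and *Tap2* (chr17:34203527-34216321, plus) come before *H2-D1* (chr17:35262730-35267499, plus) and *H2-T23* (chr17:36029773-36032855, minus). *B2m* is on chromosome 2 (chr2:122147686-122153083, plus) and *Nlrc5* on chromosome 8 (chr8:94434356-94527272, plus). *Tap1* and *Psmb9* run head to head and overlap by 212 bases. The library kit does not mark the strand, so reads from that stretch cannot be told apart.

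The promoters are shown because several members were higher together in the ONH, and because *H2-K1* and *H2-D1* resemble each other in them. The windows run from 250 bases before to 50 bases after the RefSeq start (GRCm38.p6, written 5′ to 3′ on the gene's strand). They are chr17:34000298-34000597 (minus) for *H2-K1*, the first of 2 overlapping windows, chr17:35262844-35263143 (plus) for *H2-D1*, chr17:36032652-36032951 (minus) for *H2-T23*, chr2:122147437-122147736 (plus) for *B2m* and chr17:34187306-34187605 (plus) for *Tap1*. Capitals mark the kappa-B letters GGGANTNCC and the interferon element letters GAAANNGAA, searched on both strands.
H2-K1: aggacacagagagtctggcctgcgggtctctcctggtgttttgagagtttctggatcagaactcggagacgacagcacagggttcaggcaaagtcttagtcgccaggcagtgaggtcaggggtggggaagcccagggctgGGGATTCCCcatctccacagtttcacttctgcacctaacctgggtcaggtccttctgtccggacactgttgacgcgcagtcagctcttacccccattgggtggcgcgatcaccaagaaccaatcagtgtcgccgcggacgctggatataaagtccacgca
H2-D1: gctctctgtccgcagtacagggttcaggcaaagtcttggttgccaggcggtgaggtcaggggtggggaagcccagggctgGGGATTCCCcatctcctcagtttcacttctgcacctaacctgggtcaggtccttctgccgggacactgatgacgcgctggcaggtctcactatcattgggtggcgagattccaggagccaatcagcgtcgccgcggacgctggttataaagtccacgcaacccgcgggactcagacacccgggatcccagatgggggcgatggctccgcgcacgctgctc
H2-T23: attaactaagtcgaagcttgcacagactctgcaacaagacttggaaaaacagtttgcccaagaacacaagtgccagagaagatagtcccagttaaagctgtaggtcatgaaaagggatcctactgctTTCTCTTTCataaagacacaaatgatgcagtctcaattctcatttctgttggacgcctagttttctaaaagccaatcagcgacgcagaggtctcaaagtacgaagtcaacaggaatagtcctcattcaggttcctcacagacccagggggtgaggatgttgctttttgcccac
B2m: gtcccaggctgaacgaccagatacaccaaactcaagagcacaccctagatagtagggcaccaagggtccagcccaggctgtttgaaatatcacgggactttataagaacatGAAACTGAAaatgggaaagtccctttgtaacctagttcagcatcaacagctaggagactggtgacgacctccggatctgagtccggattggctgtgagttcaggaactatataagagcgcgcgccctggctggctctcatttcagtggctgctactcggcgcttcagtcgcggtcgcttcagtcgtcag
Tap1: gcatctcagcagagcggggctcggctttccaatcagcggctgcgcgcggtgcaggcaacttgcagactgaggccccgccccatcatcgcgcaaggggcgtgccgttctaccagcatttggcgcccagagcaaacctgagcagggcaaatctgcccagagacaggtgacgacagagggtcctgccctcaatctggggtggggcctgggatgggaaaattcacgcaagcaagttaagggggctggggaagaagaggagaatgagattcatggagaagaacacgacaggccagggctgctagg

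RefSeq gave a window for 8 of the 10 members; *Tap2* and *Nlrc5* are without one. The kappa-B letters were in 2 of the 8 (*H2-K1* and *H2-D1*) and in 3.95% of all 32851 promoter windows. Both carry the same site GGGATTCCC, 110 bases before the start in *H2-K1* and 170 before it in *H2-D1*, counted to the first base of the site. The interferon element letters were in 2 of the 8 (*B2m* and *H2-T23*) and in 8.56% of all windows, and TTCNNNGAA, the letters of an interferon-gamma site, in *Psmb8* alone and in 8.3% of all. CCAAT was in 7 of the 8 against 37.4% of all windows, and TGACG in 5 of the 8 against 20.8%. The *Tap1* and *Psmb9* windows are the same stretch read in opposite directions over 275 bases, so that their matches are not separate. A match is a description of letters only, and no factor's binding was measured. Sites of another length or spelling were not counted, so a window without a match can still hold such a site.

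Libraries held 16292489 to 33307092 counts, and no 2 libraries were identical. Levels are in CPM, counts divided by library size, with TMM scaling over all 22 libraries. A floor of 3 counts lies below every member in every library, the lowest value being 0.653 CPM for *Nlrc5*. Summed over 10 astrocyte markers the libraries held 13949 to 33885 CPM, with no marker at 0 in any group. The libraries also held 13269 to 107709 CPM of 8 oligodendrocyte markers and 231 to 6677 CPM of 15 microglia and macrophage markers. At day 30 the libraries of replicate 7 held the highest microglia and macrophage sum of each region. It was 5767 CPM in the ONH, against 231 to 2143 in the other ONH libraries. In the ONP it was 6677 CPM, against 292 to 4540, where the 4540 CPM belonged to replicate 5. The ONH library of replicate 7 also held 89.5 CPM of the growth hormone gene *Gh* and 86.2 CPM of the prolactin gene *Prl*, against at most 3.61 and 8.79 in any other library. The members' comparisons between regions at day 30 and between days in the ONP are given with and without them.

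Levels per kilobase of exon put *H2-D1*, *B2m* and *H2-K1* first, in that order, in all 4 groups. The length took all annotated exons of a gene together, 860 bases for *B2m* and 3660 for *Psmb9*. It can exceed the length of 1 transcript, so the order of the members is a rough one. *H2-D1* was the highest member, at 1015 ± 511 CPM per kb in the ONH at day 30 (SD, n = 7) and 582 ± 385 in the ONP. *B2m* came next at 486 ± 252 and 318 ± 261 CPM per kb, and *H2-K1* after it at 198 ± 76.5 and 112 ± 65.8. *Tapbp* and *H2-T23* were the neighbours at 101 ± 11.8 and 99.6 ± 46.6 CPM per kb in the ONH at day 30, a gap smaller than either SD. *Psmb8* (41.4 ± 13.7) and *Tap2* (32.7 ± 5.12) followed there, then *Psmb9* (8.91 ± 2.95) and *Tap1* (7.86 ± 2.39), the latter pair again within either SD. The gap between *Psmb8* and *Tap2* exceeded the SD of *Tap2* and not that of *Psmb8*. *Nlrc5* was last in every group, at 0.258 ± 0.151 CPM per kb in the ONH at day 30. *Tap2* therefore exceeded *Tap1*, although their products form 1 transporter.

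**Figure D1:**
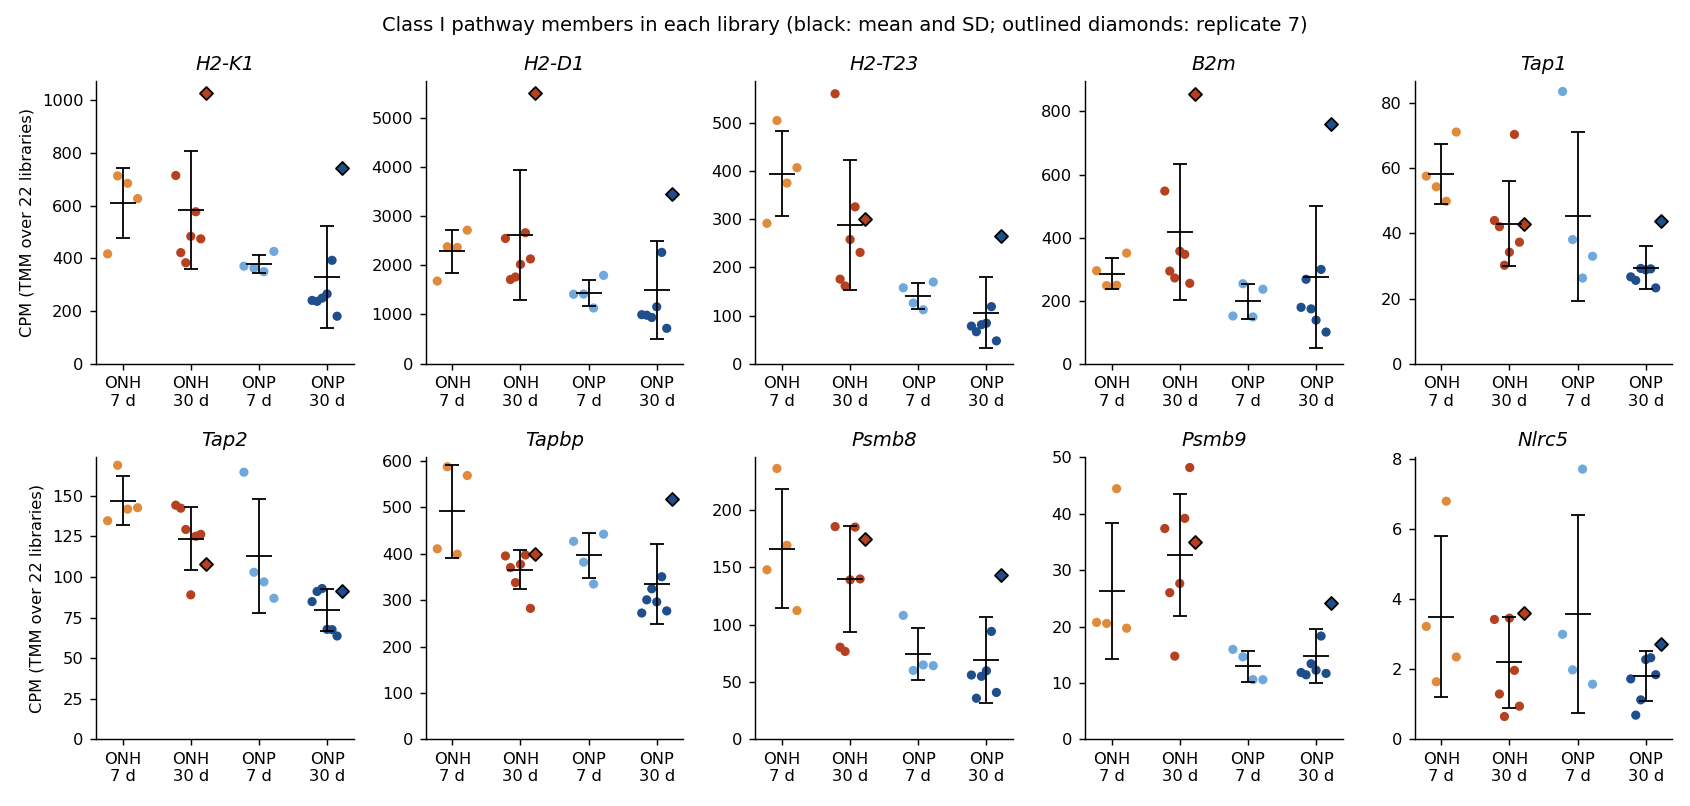
CPM of each of the 10 members (TMM over 22 libraries; each panel has its own axis from 0) in the ONH and ONP at 7 and 30 days, with 1 point per library, the mean and the SD. Outlined diamonds are replicate 7 at day 30, whose ONP library is the highest of the 7 ONP libraries for 9 of the 10 members.

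The first question is whether the ONH and ONP libraries differ in class I mRNA. They did at both times, and no member had a log2 fold change (log2FC, ONH minus ONP) below 0. That of *Nlrc5* at day 7 was 0.01 and changed sign in other fits. At day 30, 6 of the 10 members were higher in the ONH (edgeR's quasi-likelihood test, Benjamini-Hochberg adjusted over 15133 genes), where 21.8% of all genes tested were called higher in the ONH and 20% lower. At day 7, 4 of the 10 were higher, against 6.34% of genes called higher and 6.81% lower. No member was lower in the ONH at either time. The median log2FC of the 10 was 0.76 at day 30 and 0.63 at day 7, where the medians of all genes tested were -0.01 and 0.07.

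The heavy chain *H2-K1*, a classical class I molecule, lay between 383 and 1028 CPM in the ONH at day 30 (median 484) and between 180 and 743 CPM in the ONP (median 249). The 7 ONH libraries all exceeded the ONP median, and the groups overlapped through ONP replicates 5 and 7. At day 7 *H2-K1* was at 417, 713, 685 and 627 CPM in the ONH and 370, 363, 349 and 426 CPM in the ONP, so that 3 of 4 ONH libraries lay above all ONP libraries. The log2FC was 0.88 (SE 0.30, adjusted p = 0.0274) at day 30 and 0.73 (SE 0.19, adjusted p = 0.0281) at day 7 by edgeR. Both calls were near the threshold: 7 of 14 fits at day 30 and 6 of 8 at day 7 that left out 1 library no longer passed it.

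*H2-D1*, the other classical heavy chain, was the most abundant member. It lay between 1710 and 5493 CPM in the ONH at day 30 (median 2129) and between 719 and 3445 CPM in the ONP (median 996). The day 7 libraries were at 1679, 2376, 2362 and 2713 CPM in the ONH and at 1411, 1415, 1131 and 1794 CPM in the ONP. The regions overlapped at both times, by 1 library of each region at day 7. *H2-D1* passed the test at day 7 (log2FC 0.70, SE 0.19, adjusted p = 0.0366) and missed it at day 30 (log2FC 0.86, SE 0.35, adjusted p = 0.0633), although its fold was no smaller. The edgeR call at day 7 was lost in 6 of 8 fits that left out 1 library. With the replicate number as a block, *H2-D1* was higher in the ONH at day 30 too (log2FC 0.95, SE 0.14, adjusted p = 0.000358, edgeR).

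*H2-T23* encodes Qa-1, a nonclassical molecule that presents leader peptides of other class I chains to the receptor CD94/NKG2. It had the largest difference of the 10 at both times. ONH libraries lay between 162 and 561 CPM at day 30 (median 258) and ONP libraries between 47.5 and 266 CPM (median 81.0), with 6 of 7 ONP libraries below every ONH library. At day 7 the 4 ONH libraries were at 292, 505, 375 and 407 CPM and the 4 ONP libraries at 158, 126, 112 and 170 CPM, and the regions did not overlap. The difference was 2.81-fold at day 30 (log2FC 1.49, SE 0.35, adjusted p = 0.00328) and 2.85-fold at day 7 (log2FC 1.51, SE 0.20, adjusted p = 0.00105) by edgeR. It passed in all 14 and all 8 fits that left out 1 library.

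The light chain gene *B2m*, which all class I molecules share, was at 255 to 856 CPM in the ONH at day 30 (median 347) and at 100 to 759 CPM in the ONP (median 179). Its day 7 libraries were at 295, 248, 249 and 351 CPM in the ONH and at 151, 254, 148 and 236 CPM in the ONP. The regions overlapped at both times and the test was missed at both, with a log2FC of 0.66 (SE 0.40, adjusted p = 0.199) and 0.56 (SE 0.21, adjusted p = 0.114) by edgeR. With the replicate block the day 30 difference passed (log2FC 0.82, SE 0.19, adjusted p = 0.00534). *B2m* was higher in the ONH than in the ONP of the same replicate number in 7 of 7 pairs.

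The heavy chains share sequence, and their counts are uncertain to that extent. Of the 31-base words in their transcripts (the word length of the read matching), 22.8% of those of *H2-K1*, 26.7% of those of *H2-D1* and 24.5% of those of *H2-T23* also occur in transcripts of other genes, most of them other class I heavy chains. For *B2m*, *Psmb9* and *Nlrc5* the share was 0%, and for *Tap1*, *Tap2*, *Tapbp* and *Psmb8* it was 0.378% to 4.62%.

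Both chains of the peptide transporter were higher in the ONH at day 30. *Tap2* lay at 89.0 to 144 CPM in the ONH (median 126) and 63.7 to 92.9 CPM in the ONP (median 84.9), with 6 of 7 ONH libraries above every ONP library. *Tap1* lay at 30.2 to 70.4 CPM in the ONH (median 42.1) and 23.3 to 43.8 CPM in the ONP (median 28.8). The log2FC was 0.67 for *Tap2* (SE 0.12, adjusted p = 0.000581) and 0.59 for *Tap1* (SE 0.18, adjusted p = 0.0140), and neither edgeR call was lost when any 1 library was left out. At day 7 neither passed, with a log2FC of 0.41 (SE 0.21, adjusted p = 0.236) for *Tap2* and 0.39 (SE 0.33, adjusted p = 0.474) for *Tap1* in edgeR. *Tap1* in the ONP at day 7 stood at 83.6, 38.1, 26.3 and 33 CPM, the first of these being the highest of all 22 libraries. Without that library *Tap1* was called higher in the ONH at day 7, with a log2FC of 0.86.

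*Tapbp*, whose product tapasin bridges the transporter and the empty class I molecule, differed little by region. Its values ran from 283 to 400 CPM in the ONH at day 30 (median 378) and from 272 to 519 CPM in the ONP (median 301). At day 7 they were 411, 588, 399 and 569 CPM in the ONH and 427, 382, 335 and 442 CPM in the ONP. The groups overlapped widely, and the log2FC was 0.17 (SE 0.14, adjusted p = 0.324) and 0.33 (SE 0.17, adjusted p = 0.229) by edgeR. The 95% interval of the day 30 difference, -0.12 to 0.46, left out a difference as large as that of *H2-T23*.

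The immunoproteasome genes differed by more than 2-fold at day 30. *Psmb8*, the inducible chymotrypsin-like subunit, lay at 76.7 to 185 CPM in the ONH (median 140) and 35.9 to 143 CPM in the ONP (median 56.1). Its log2FC was 1.06 (SE 0.30, adjusted p = 0.00926, edgeR). *Psmb9*, the inducible caspase-like site, lay at 14.8 to 48.2 CPM in the ONH (median 35.1) and 11.5 to 24.3 CPM in the ONP (median 12.3), with 6 of 7 ONH libraries above every ONP library. Its log2FC was 1.19 (SE 0.24, adjusted p = 0.000913, edgeR). Both calls held in all 14 fits that left out 1 library.

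At day 7 both immunoproteasome members separated the regions without overlap. *Psmb8* was at 148, 236, 169 and 112 CPM in the ONH and at 108, 60.1, 64.9 and 64.3 CPM in the ONP (log2FC 1.19, SE 0.27, adjusted p = 0.0152, edgeR). That call was lost in 3 of 8 fits that left out 1 library. *Psmb9* was at 20.7, 20.6, 44.4 and 19.7 CPM in the ONH and at 16, 14.6, 10.6 and 10.6 CPM in the ONP. It missed the threshold in edgeR (log2FC 1.07, SE 0.33, adjusted p = 0.0589) and passed in DESeq2 (adjusted p = 0.0198). With *H2-T23*, 3 of the 10 members did not overlap between the regions at day 7, where 9.63% of all genes were higher in the ONH without overlap. At day 30 none of the 10 was free of overlap, against 8.6% of all genes.

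*Nlrc5*, the coactivator, showed no such difference. It lay at 0.653 to 3.61 CPM in the ONH at day 30 (median 1.97) and at 0.692 to 2.72 CPM in the ONP (median 1.84), and the libraries of the regions were intermingled. The day 7 values were 3.22, 1.64, 6.79 and 2.35 CPM in the ONH and 3, 1.98, 7.70 and 1.57 CPM in the ONP. Its log2FC was 0.32 (95% interval -0.57 to 1.21) at day 30 and 0.01 (-1.42 to 1.45) at day 7, so that a difference of the size of *H2-K1* lies within both intervals. At these levels a regional difference in *Nlrc5* was not detectable.

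**Figure D2:**
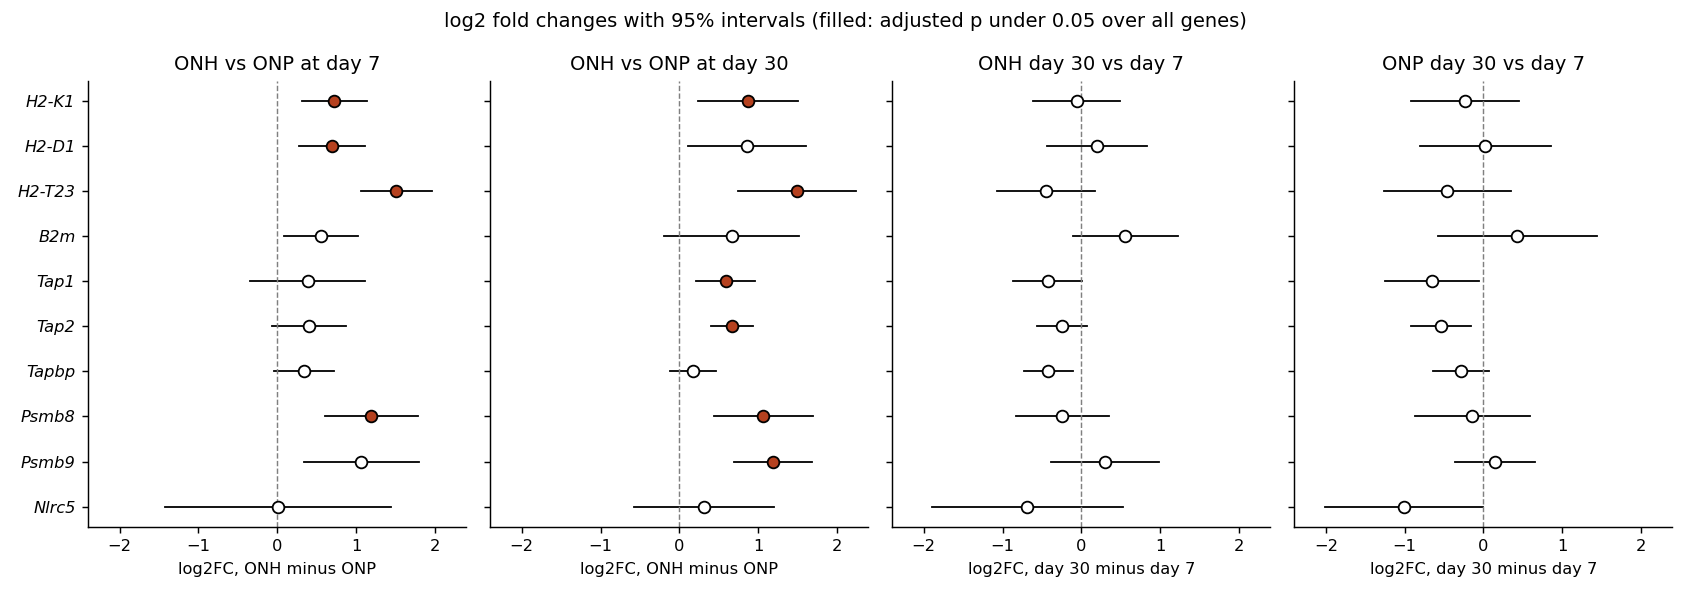
Log2FC of the 10 members with 95% intervals (edgeR) for both regional comparisons (ONH minus ONP) and both time comparisons (day 30 minus day 7). Filled points passed an adjusted p of 0.05 over all genes: 4 at day 7 and 6 at day 30 between the regions, and none between the days.

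Because each pair of regions was taken to share its mice, the ONH and ONP libraries at day 30 were also set against each other by replicate number. In 7 of the 10 members the ONH exceeded the ONP in all 7 pairs. The exceptions were *Tap1* and *Tapbp*, each lower in the ONH of replicate 7, and *Nlrc5*, lower in the ONH in 3 pairs. The share of all genes higher in the ONH in all 7 pairs was not computed, so this count only describes the members. The median within-pair log2 ratio was 1.46 for *H2-T23*, 1.17 for *Psmb9*, 1.16 for *Psmb8*, 0.83 for *H2-K1* and 0.80 for *H2-D1*. With the replicate number as a block in edgeR, 8 of the 10 members were called higher in the ONH, against 22.1% of all genes. The SE of *H2-K1* fell from 0.30 to 0.14 and its log2FC was 0.94 (adjusted p = 0.000285). Only *Tapbp* and *Nlrc5* did not pass the blocked test (adjusted p = 0.154 and 0.678).

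**Figure D3:**
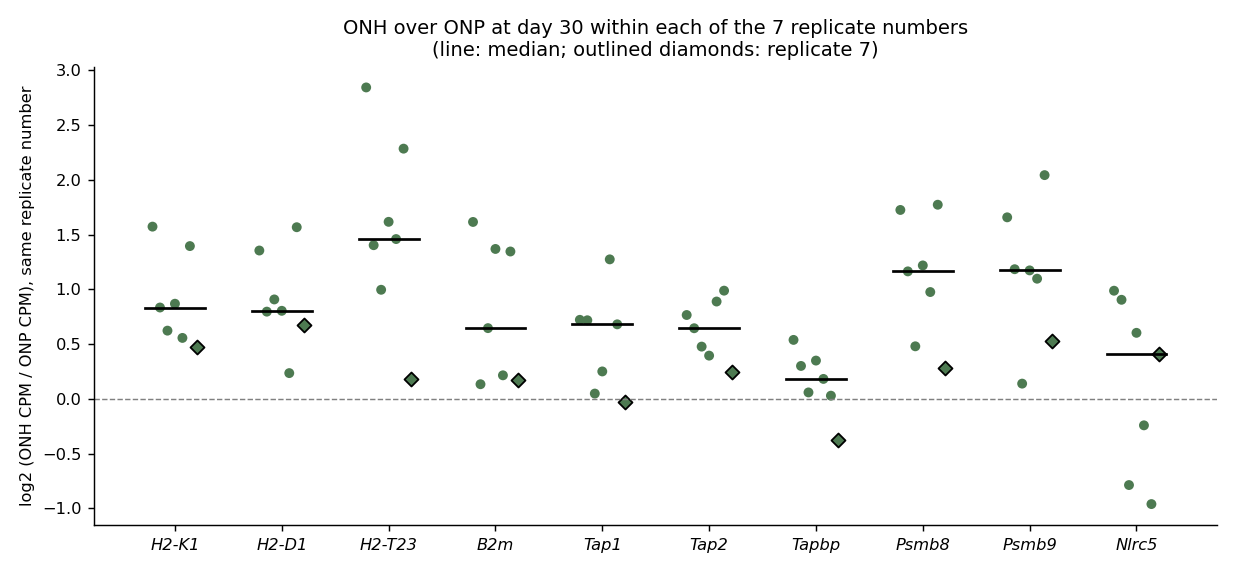
Log2 ratio of ONH to ONP CPM within each of the 7 replicate numbers at day 30, with the median as a line. All 7 pairs lie above 0 for *H2-K1*, *H2-D1*, *H2-T23*, *B2m*, *Tap2*, *Psmb8* and *Psmb9*, and the outlined diamonds of replicate 7 are the lowest of the 7 for 6 members.

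The classical chains and *B2m* stood high in the pool of replicate 7 at day 30. *H2-D1* in replicate 7 was 2.65-fold above the median of the other ONH libraries and 3.48-fold above that of the other ONP libraries. For *B2m* these ratios were 2.67 and 4.30, and for *H2-K1* 2.15 and 3.04. For *H2-T23* they were 1.23 and 3.34, so that its regional difference in replicate 7 was small (log2 ratio 0.18). *Tap2* stood at 0.847 and 1.2 times the median of the others. With both libraries of replicate 7 left out, 8 of the 10 members were higher in the ONH at day 30, against 19.7% of all genes, and the same 8 passed with the replicate block added (19.7% of all genes). *H2-T23* then differed by 3.65-fold (log2FC 1.87, SE 0.29, adjusted p = 0.000262, edgeR).

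Microglia and macrophage markers were set beside both the spread between libraries and the regional difference. Across the 22 libraries, with group means removed, the mean log2 level of the 10 members followed the summed microglia and macrophage markers with r = 0.70 (rho = 0.62), and with r = 0.53 over the 20 libraries without replicate 7. It ran against the summed astrocyte markers (r = -0.55). These libraries share their region, time and scaling, and the part of either cell type in the members' levels was not tested. Between regions 0 of the 15 microglia and macrophage markers were called higher in the ONH at either time (21.8% and 6.34% of all genes), and 1 of 15 was lower at day 30 and 0 at day 7 (20% and 6.81% of all genes). Their median log2FC was -0.46 at day 30 and -0.51 at day 7. At an unadjusted p under 0.05 the count higher in the ONH was also 0 of 15 at both times, against 25.5% and 15.7% of all genes. Of the 10 astrocyte markers, edgeR called 1 higher and 4 lower in the ONH at day 30 (21.8% and 20% of all genes). At day 7 it called 0 higher and 2 lower (6.34% and 6.81%). Their median log2FC was -0.17 at day 30 and 0.15 at day 7. The median astrocyte sum was 19419 CPM in the ONH and 29020 in the ONP at day 30, and 18584 and 20090 CPM at day 7.

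**Figure D4:**
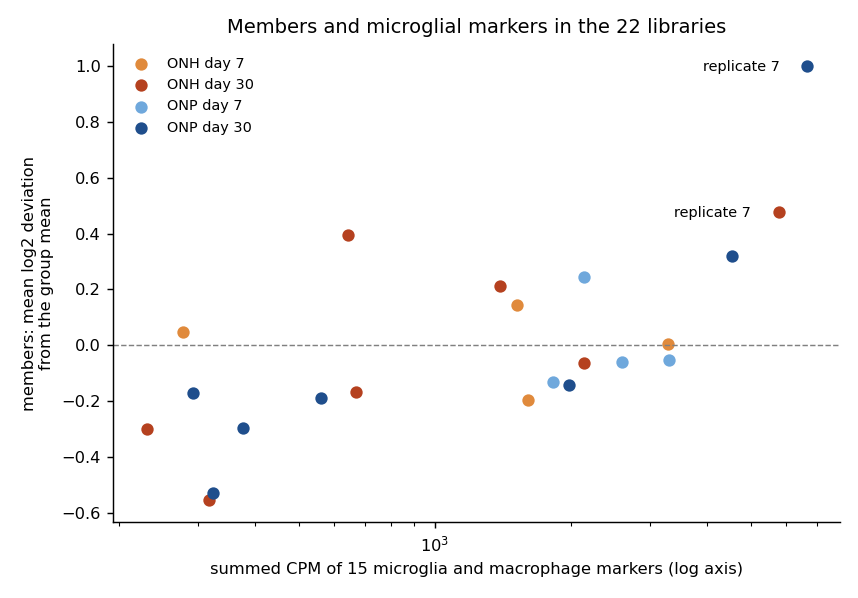
Mean log2 deviation of the 10 members from their group mean (vertical) against the summed CPM of 15 microglia and macrophage markers (horizontal, log axis) in the 22 libraries. The highest library on both axes is ONP replicate 7 at day 30, with a deviation of 1 and 6677 CPM.

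The vessel, fibroblast and oligodendrocyte markers were examined in the same way. Endothelial markers had a median log2FC of 0.59 at day 30 and 0.64 at day 7, with 3 of 12 and 1 of 12 called higher in the ONH, near the shares of all genes (21.8% and 6.34%). They summed to 45.3 to 186 CPM in the ONH and 20.7 to 156 CPM in the ONP at day 30. Mural markers summed to 204 to 739 CPM in the ONH and 104 to 233 CPM in the ONP at day 30. There 3 of 7 tested were called higher and 1 lower (21.8% and 20% of all genes), with a median log2FC of -0.16. At day 7 their sums were 477 to 845 CPM in the ONH and 120 to 193 CPM in the ONP, without overlap. Then 2 of 8 were called higher and 0 lower (6.34% and 6.81% of all genes), and the median log2FC was 0.96. Fibroblast and meningeal markers had a median log2FC of 0.02 at day 30 and 1.04 at day 7. Of these 7, 1 was called higher at each time and 1 lower at day 30, against the same shares of all genes. The oligodendrocyte markers were lower in the ONH, 6 of 8 at day 30 and 8 of 8 at day 7, against 20% and 6.81% of all genes. No marker of these lists was at 0 in all libraries of a group, and their part in the members' difference was not tested. In bulk libraries fewer cells of a type and less RNA per cell cannot be told apart.

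The 3 catalytic subunits exist as pairs, an inducible and a constitutive one, and their ratio within a library does not depend on its depth. *Psmb10*, the remaining inducible subunit and no member, gave the cleanest separation. The log2 ratio of *Psmb10* to *Psmb7* (CPM plus 0.5) was 1.03 ± 0.32 in the ONH and 0.05 ± 0.34 in the ONP at day 30 (SD, n = 7 each), with no overlap (exact two-sided permutation test, p = 0.000583, adjusted over 12 comparisons 0.00699). At day 7 it was 1.13 ± 0.30 and 0.05 ± 0.32 (n = 4 each), again without overlap, and the exact permutation p of 0.0286 is the smallest that 4 against 4 allow (adjusted 0.114). *Psmb9* to *Psmb6* was -3.34 ± 0.44 in the ONH and -4.09 ± 0.42 in the ONP at day 30, a difference of 0.74 with an exact permutation p of 0.0122 and an adjusted p of 0.0734. *Psmb8* to *Psmb5* differed by 0.60 at day 30 (exact permutation p = 0.0758, adjusted 0.206), which is less than its spread of 0.66 (SD) among the ONP libraries. All 3 constitutive genes were themselves higher in the ONH at day 30, against 21.8% of all genes, *Psmb5* most (log2FC 0.55, SE 0.12, adjusted p = 0.00183, edgeR). None of the 3 ratios passed between days in either region (adjusted p from 0.206 to 0.982, exact permutation tests). The permutation tests between regions took the libraries as independent and did not use the replicate number that pairs them at day 30. A paired form of the ratio test was not run.

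**Figure D5:**
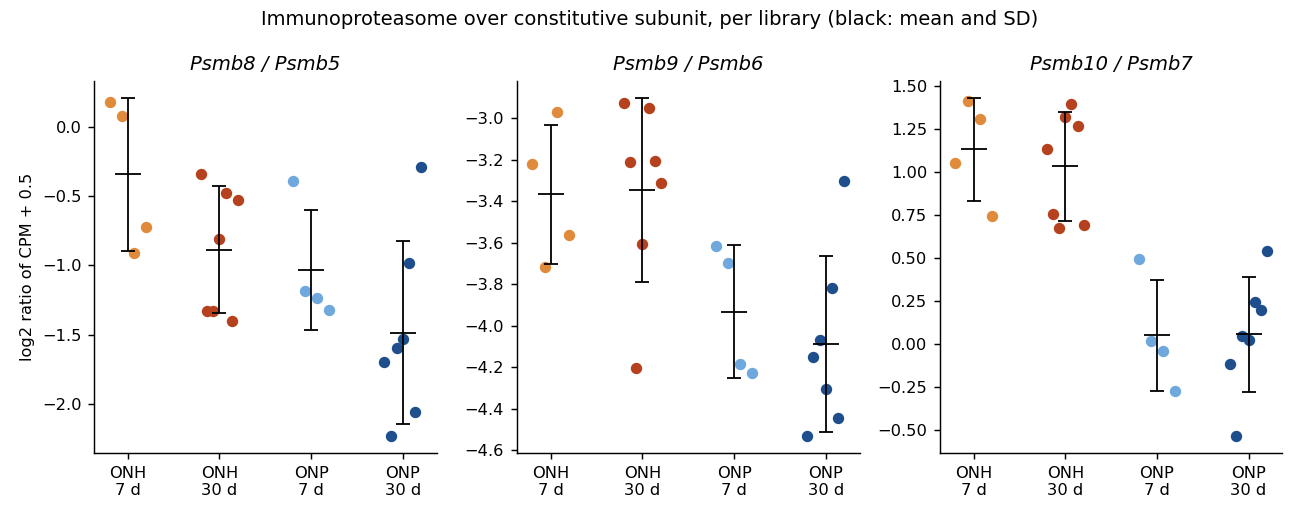
Log2 ratio of the inducible to the constitutive proteasome subunit gene (CPM plus 0.5) in each library of the 4 groups, with mean and SD (black); the vertical axes do not start at 0. *Psmb10* to *Psmb7* separates the ONH from the ONP without overlap at both times, while the other ratios overlap.

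The next question is whether the members changed between 7 and 30 days, tested on the same libraries as the regions. None did in the ONH: 0 of 10 passed in edgeR, where 0% of the 15668 genes tested passed, and 0 of 10 in DESeq2, where 2.48% of genes did. At an unadjusted p under 0.05 there was 1 of 10, against 13.9% of all genes. That one was *Tapbp*, at 399 to 588 CPM at day 7 and 283 to 400 CPM at day 30, an overlap of less than 1 CPM between the groups (log2FC -0.42, SE 0.15, adjusted p = 0.253, edgeR). The median log2FC of the 10 was -0.24, with 7 below 0, and that of all genes was -0.02. The other 9 lay between -0.68 (*Nlrc5*) and 0.56 (*B2m*), with adjusted p-values of 0.370 and above.

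In the ONP 0 of 10 members passed in edgeR, where 17% of genes did, and 1 of 10 in DESeq2, where 20.2% did. At an unadjusted p under 0.05 there were 3 of 10, against 32.6% of all genes. The one that DESeq2 called was *Tap2*, at 165, 103, 97.0 and 86.9 CPM at day 7 and at 63.7 to 92.9 CPM at day 30. None of the day 30 libraries reached the day 7 median (log2FC -0.54, SE 0.18, adjusted p = 0.0534 by edgeR and 0.0487 by DESeq2). *Tap1* had a log2FC of -0.66 (SE 0.27, adjusted p = 0.118) and *Nlrc5* of -1.01 (SE 0.46, adjusted p = 0.152) in edgeR. The median of the 10 was -0.26, against -0.01 for all genes.

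ONP replicate 7 decided this comparison for 3 members. Without it, *H2-T23* fell from day 7 to day 30 by 0.86 on the log2 scale (SE 0.21, adjusted p = 0.0196), *H2-K1* fell by 0.56 (SE 0.17, adjusted p = 0.0469) and *Tapbp* fell by 0.42 (SE 0.10, adjusted p = 0.0225), all by edgeR. *H2-D1* still did not pass (log2FC -0.32, adjusted p = 0.447). That is 3 of 10 members, against 8.79% of all genes called lower at day 30 in that fit and 9.21% with all libraries. *H2-K1* in the ONP stood at 349 to 426 CPM at day 7, and 5 of the 7 libraries at day 30 were below all of these. With replicate 7 the same values gave a log2FC of -0.23 for *H2-K1* (adjusted p = 0.646) and -0.46 for *H2-T23* (adjusted p = 0.430, edgeR). Cell type markers in the ONP differed between these days as well. Over all libraries, edgeR called 8 of 12 endothelial and 7 of 8 oligodendrocyte markers lower at day 30 (9.21% of all genes). It called none of these higher, and 2 of 10 astrocyte markers higher (7.82% of all genes). The median microglia and macrophage sum was 2367 CPM at day 7 and 562 CPM at day 30, with 0 of 15 markers called. The part of these cell types in the members' falls was not tested.

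The last question is whether the change over time differed between the regions. For 0 of 10 members did it pass in edgeR, where 0.543% of genes did, or in DESeq2, where 2.27% did. At an unadjusted p under 0.05 the count was also 0 of 10, against 12.6% of all genes. The interaction log2FC (the ONP change minus the ONH change) lay between -0.32 (*Nlrc5*) and 0.14 (*Tapbp*), and the smallest adjusted p was 0.674 (*Tap2*). For *H2-T23* it was -0.00098 with a 95% interval from -1.05 to 1.05, so that a regional difference in the change of about 2-fold could not be detected.

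The other genes of the pathway were taken from lists. Of 17 other class I heavy chain genes 11 could be tested between the regions at day 30. Of these 4 were higher in the ONH and none lower, against 21.8% and 20% of all genes. They were *H2-Q4* (log2FC 1.81, adjusted p = 0.00517), *H2-T22* (0.87, adjusted p = 0.00585), the CD1 molecule gene *Cd1d1* (0.84, adjusted p = 0.0386) and *Fcgrt* (0.50, adjusted p = 0.00290), which encodes the neonatal Fc receptor and presents no peptide. At day 7, 3 of 11 were higher, against 6.34% of all genes: *H2-Q6* (log2FC 1.81, adjusted p = 0.0229), *H2-Q7* (1.07, adjusted p = 0.0254) and *Fcgrt* (0.87, adjusted p = 0.0353). The median log2FC of the list was 0.84 at day 30 and 0.75 at day 7 (edgeR), close to that of the members.

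Of 7 proteasome genes beside the members, 5 were higher in the ONH at day 30 and 1 lower, against 21.8% and 20% of all genes. *Psmb10* had a log2FC of 1.28 (SE 0.16, adjusted p = 2.1e-05), the activator subunit gene *Psme2* 0.84 (adjusted p = 0.000106) and the assembly factor gene *Pomp* 0.91 (adjusted p = 0.000145). The inhibitor gene *Psmf1* was the one that was lower (log2FC -0.32, adjusted p = 0.00897). At day 7, 2 of 7 were higher, *Psme1* (log2FC 0.93, adjusted p = 0.00648) and *Psmb10* (1.08, adjusted p = 0.0199), by edgeR, against 6.34% of all genes.

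Genes for loading and trimming had a median log2FC between the regions of 0.11 at day 30 and -0.18 at day 7 (edgeR). Of these 12 genes, 2 were higher in the ONH at day 30 and 1 at day 7, near the shares of all genes (21.8% and 6.34%). The translocon gene *Sec61b* was among them both times (log2FC 1.04 and 1.05), and none of the 12 was lower. In the ONP 9 of the 12 fell from day 7 to day 30, against 9.21% of all genes. Among them the chaperone genes *Hspa5* (log2FC -0.93, adjusted p = 0.000651) and *Calr* (-0.63, adjusted p = 0.00261), the disulfide isomerase gene *Pdia3* (-0.55, adjusted p = 0.00278) and the peptidase gene *Npepps* (-0.44, adjusted p = 0.00806) had the smallest p-values in edgeR. These genes serve the folding of many proteins besides class I.

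Of 21 regulators, 5 were higher and 4 lower in the ONH at day 30, shares close to those of all genes (21.8% and 20%). None passed in edgeR at day 7, against 13.2% of all genes in either direction. Of 20 tested there, 4 had an unadjusted p under 0.05, against 28.9% of all genes. DESeq2 called 1 at day 7, against 18.9% of all genes. *Irf2* (log2FC 1.25, adjusted p = 0.00354), *Atf1* (0.94, adjusted p = 2.2e-05) and *Irf3* (0.54, adjusted p = 0.000286) were among those higher in the ONH at day 30 (edgeR). *Irf1*, an activator of class I genes, did not pass in any of these comparisons (log2FC 0.30, adjusted p = 0.108 at day 30). Of 9 interferon receptor and kinase genes 1 was higher at day 30 and 3 were lower, against 21.8% and 20% of all genes. The higher one was the feedback inhibitor gene *Socs1* (log2FC 1.18, adjusted p = 0.0122, edgeR). The lower ones were the receptor gene *Ifnar1* (-0.47, adjusted p = 0.00290) and the kinase genes *Jak2* (-0.59, adjusted p = 0.00996) and *Tyk2* (-0.70, adjusted p = 0.0159), all by edgeR.

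MHC class II genes, which serve the presentation of material taken up from outside, were compared for contrast. At day 30, 0 of 9 passed in edgeR and in DESeq2, against 41.8% and 36.7% of all genes in either direction. At an unadjusted p under 0.05 there was 1 of 9, against 49.6% of all genes. At day 7, 2 of 9 were higher in the ONH, *H2-Aa* (log2FC 1.74, adjusted p = 0.0404) and *H2-Ab1* (1.62, adjusted p = 0.0425, edgeR). These 2 of 9 stood against 6.34% of all genes called higher. DESeq2 called 3 of 9 at day 7, against 18.9% of all genes in either direction. At an unadjusted p under 0.05, 4 of 9 were higher and 0 lower, against 15.7% and 13.2% of all genes (edgeR). The median log2FC of the 9 was 0.04 at day 7, with 5 above 0 and 4 below.

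The members did not vary as 1 block. With group means removed over the 22 libraries, *H2-K1* and *H2-D1* followed each other most closely (r = 0.96), and both followed *B2m* (r = 0.85 and 0.86). The median r with the other 9 members was 0.75 for *H2-K1*, 0.74 for *H2-T23* and 0.72 for *H2-D1*, but 0.16 for *Tap2* and 0.31 for *Nlrc5*. The shared sequence of the heavy chains and the shared libraries enter these values.

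Of 16738 other genes, those that followed the mean of the members most closely were *Psme1* (r = 0.91 over 22 libraries), *Rnaset2a* (0.87), *H2-Q6* (0.86), *Ly6e* (0.86), *Ctsz* (0.84), *Cxcr6* (0.84), *Igf1* (0.84), *Pdcd1* (0.84), *H2-Q7* (0.84) and *Mlxipl* (0.83). *Psme1* encodes a subunit of the interferon-inducible PA28 proteasome activator. It kept r = 0.88 over the 20 libraries without replicate 7, and the other 9 then lay between 0.66 and 0.75. *Cxcr6* and *Pdcd1* are known from T cells, and *Ctsz* from microglia and macrophages. The summed level of 11 lymphocyte markers was 16.5 CPM in the ONH and 19.5 CPM in the ONP library of replicate 7, the highest of their groups, with 1 of the 11 markers at 0 in all ONP libraries at day 30 and 2 of 11 in each day 7 group.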

How the data were processed

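Per the labels and the study's methods, the authors aligned reads to mm10 with STAR 2.6.1d and quantified Ensembl 94 transcripts with Salmon 0.14.2. They deposited unnormalized expected counts, rounded to whole numbers. They also deposited log2 values (variance stabilized, DESeq2 1.34.0), used here only as a check of genes and libraries.

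The tests used edgeR 4.0.16 in R 4.3.3 (filterByExpr by group, TMM, quasi-likelihood, Benjamini-Hochberg over all genes, threshold 0.05), tested on simulated counts, and DESeq2 1.42.0, which the study's methods name, as an alternative. P-values measure the spread between pools. Ratios were compared by exact permutation tests (scipy 1.17.1) that took the libraries as independent. The floor of 3 counts covers counting error only. Day 7 columns, numbered 1, 3, 5 and 6 (ONH) and 1, 2, 5 and 6 (ONP), matched groups only and are listed in that order. Day 30 numbers pair the regions by inference from the study's statement on shared mice, and same-numbered deviations correlated with r of 0.0805 to 0.540, the highest r being with the own number for 4 of 7 replicates.

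Members and lists were chosen with earlier results of these data known. Beside the members, the text names the 4 smallest p-values of each list past the threshold, *Psmb5*, *Psmb6*, *Psmb7*, *Psmb10* and *Irf1*, and the 10 genes most like the members' mean; 1 gene that this rule names is not reported here. *Gh* and *Prl* were named after their values were seen. Alternatives were RLE or library size scaling, no filter, 1 fit over all groups, the replicate block and each library left out. Leaving out replicate 7 of both regions was chosen after seeing the data.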

Additional observations from a re-analysis of the deposited data

Results flagged for a closer look

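In 40 sets (10 members in 4 groups), 10 single libraries lay farther from the rest of their group than Dixon's limit allows, where chance flags about 1 in 20 sets. For 5 members this was replicate 7 of the ONP at day 30: *H2-K1* at 743 CPM (others 180 to 392), *H2-T23* at 266 CPM (47.5 to 119), *B2m* at 759 CPM (100 to 299), *Tap1* at 43.8 CPM (23.3 to 29.2) and *Tapbp* at 519 CPM (272 to 351). Replicate 7 of the ONH at day 30 was flagged for *H2-D1* at 5493 CPM (others 1710 to 2661). The other flags were *H2-T23* in ONH replicate 1 at day 30 (561 CPM, others 162 to 326), *Tap1* in ONH replicate 5 at day 30 (70.4 CPM, others 30.2 to 44.0), *Psmb8* in the ONP library numbered 1 at day 7 (108 CPM, others 60.1 to 64.9) and *Psmb9* in the ONH library numbered 5 at day 7 (44.4 CPM, others 19.7 to 20.7).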

How the results depend on the processing

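Apart from the fits that left out each library in turn, 250 values of members' log2FC were computed under other settings, those without replicate 7 at day 30 included. Of these 227 kept direction and side of the threshold, 3 lost the call, 14 gained it and 6 changed sign, none of the last called with all libraries. The count of members called at day 30 between regions was 6, and 8 with the replicate block. No paired analysis was run at day 7 because the column numbers there do not match the replicate numbers of the labels. The day 7 tests between regions therefore did not use any pairing. The count in the ONP over time was 0, 1 with DESeq2 and 3 without replicate 7 (range 0 to 3 over single libraries left out). The count between regions at day 7 was 4 and ranged from 1 to 4 when single libraries were left out. Without replicate 7 the time log2FC became -0.098 (*H2-D1*, ONH), -0.32 (*H2-D1*, ONP), -0.062 (*B2m*, ONP) and -0.0063 (*Psmb9*, ONP). The log2FC of *Nlrc5* at day 7 became -0.027 without a filter and -0.0043 in 1 fit over all groups. With single libraries left out, signs also changed in the ranges -0.27 to 0.020 (*H2-K1*, ONH over time), -0.098 to 0.29 (*H2-D1*, ONH), -0.32 to 0.17 (*H2-D1*, ONP), -0.062 to 0.58 (*B2m*, ONP), -0.42 to 0.13 (*Psmb8*, ONP), -0.0063 to 0.30 (*Psmb9*, ONP) and -0.58 to 0.72 (*Nlrc5*, regions at day 7). The *Psmb9* to *Psmb6* ratio at day 30 passed in 2 of 14 such fits (0.67 to 0.89). Over time this ratio ranged from -0.095 to 0.17 in the ONH, and *Psmb10* to *Psmb7* from -0.10 to 0.15 in the ONP. Scaling by library size alone moved the median log2FC of all genes by 0.11 in the ONP over time and between regions at day 7, and by 0.15 in the interaction. The cause of these shifts was not tested. Every member lay above the floor of 3 counts in every library, and *Nlrc5* had the lowest level in every group.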
